A study of Mus musculus with 18 samples.

Results

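Small RNA was sequenced from BV-2 cells that received Δ9-tetrahydrocannabinol (THC) before lipopolysaccharide (LPS), and from untreated control cells. By the study's methods, THC was added at 10 μM for 2 h, LPS was then added at 100 ng/ml for 4 h, and the cells were thus in THC for 6 h in all. The samples labelled THC_LPS (numbers 27, 33 and 39; here THC+LPS) and those labelled Ctrl (22, 28 and 34) make 6 of the 18 samples, which fall into 6 groups of 3. The other groups are LPS, THC, CBD (cannabidiol) and CBD_LPS, and they enter below only where a value is set beside THC+LPS. BV-2 is an immortalised line of mouse microglia, the resident macrophages of the brain, so that every group shares 1 dividing cell line and holds no neurons or other brain cells. The labels do not say whether the samples of a group came from separate cultures, and p-values measure only the spread between these samples, which may be technical. The features compared were those that reached 10 reads when all 18 samples were summed, 1363 of the 2134 in the files. Names with a small r (mir) are the 642 hairpins, and names with a capital R (miR) are the 721 mature miRNAs.

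A miRNA is cut from a hairpin precursor, whose 5′ and 3′ arms each give a strand of about the same length. One strand is usually loaded into Argonaute and pairs with mRNAs mainly through its seed, bases 2 to 8, and the other is mostly degraded. In macrophages and microglia, LPS binds Toll-like receptor 4 and NF-κB and AP-1 then drive the primary transcripts of several miRNAs. miR-155, from the Mir155hg transcript, is known to promote inflammatory gene expression, while miR-146a targets the adaptors Irak1 and Traf6 and damps the same pathway. miR-21a is induced in activated myeloid cells and targets Pdcd4. The question of the comparison is which miRNAs differ from control once LPS has been given to cells that already hold THC.

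The mature sequences that carry the main differences are printed 5′ to 3′ with the seed in capitals, as RefSeq gives them on GRCm38.p6. RefSeq sequences were matched for 15 of the 17 called mature miRNAs, and these had 15 different seeds. For some of them the other arm or the nearest relative is shown as well, since the results set it beside the called one.
miR-155-5p: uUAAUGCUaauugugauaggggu
miR-155-3p: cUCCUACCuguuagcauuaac
miR-21a-5p: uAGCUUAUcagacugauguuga
miR-21a-3p: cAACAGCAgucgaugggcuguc
miR-20a-5p: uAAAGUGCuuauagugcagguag
miR-20a-3p: aCUGCAUUacgagcacuuaaag
miR-146a-5p: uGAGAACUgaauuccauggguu
miR-146b-5p: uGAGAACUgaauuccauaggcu
miR-221-5p: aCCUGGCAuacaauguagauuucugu
miR-25-5p: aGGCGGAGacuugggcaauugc
miR-25-3p: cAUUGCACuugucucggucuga
miR-10b-5p: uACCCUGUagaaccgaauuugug
miR-10a-5p: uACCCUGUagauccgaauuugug

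The hairpins below show where both arms lie in the precursor, with the mature arms in capitals, for the 3 loci whose hairpin and at least 1 arm passed the adjusted threshold used below. A read inside an arm lies in the hairpin as well, and how such reads were assigned between the hairpin and mature entries is not given in the sources used here. Values of a hairpin and of its arms are therefore not independent.
mir-155: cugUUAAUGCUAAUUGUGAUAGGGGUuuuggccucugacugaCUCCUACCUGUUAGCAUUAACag
mir-21a: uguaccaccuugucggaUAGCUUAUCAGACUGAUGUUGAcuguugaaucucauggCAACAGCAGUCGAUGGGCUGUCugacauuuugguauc
mir-20a: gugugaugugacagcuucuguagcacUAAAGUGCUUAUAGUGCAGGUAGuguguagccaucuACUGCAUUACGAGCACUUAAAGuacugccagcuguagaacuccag

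On GRCm38, mir-155 lies at chr16:84714140-84714204 on the plus strand, within exonic sequence of Mir155hg, a long non-coding RNA gene. mir-21a lies at chr11:86584067-86584158 on the minus strand, in an exon of Vmp1, which codes for a membrane protein of autophagy. mir-20a lies at chr14:115044157-115044263 on the plus strand, in an exon of Mir17hg, the host of the miR-17~92 cluster. mir-146a lies at chr11:43374397-43374461 on the minus strand and overlaps no other annotated gene. A hairpin counts as exonic here if it overlaps an exon of any annotated transcript of the gene. In other transcripts of that gene it may lie in an intron.

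The 6 samples held 442718 to 978251 reads in the files, and 1016 to 1371 features had at least 1 read. A level is given in CPM, the read count scaled to the library's size, and is not per length. Mature miRNAs are of nearly the same length, so ranks among them are given as a description, while levels of hairpins and mature miRNAs are not compared. At this depth 3 reads in a sample equal 3.44 to 6.38 CPM. Control 22 and THC+LPS 27 stood apart from the other samples of their groups in the share of some hairpins and in rank correlation. The mir-6236, mir-6240 and mir-6243 hairpins took 0.204% and 0.361% of their reads when summed, against 2.10% to 3.81% in the other 4 samples. Spearman's correlation over features was 0.789 and 0.809 between control 22 and the other controls and 0.899 between those, and 0.827 and 0.823 against 0.913 in THC+LPS (a description across features). Results are therefore also given over samples 28 to 39, which leave out the first sample of every group. The 2 controls left there still differed. The chi-square of their read counts per degree of freedom, near 1 under sampling noise alone, was 51.6. It was 94.5 and 52.2 between control 22 and controls 28 and 34. In THC+LPS it was 67.6 and 74.6 between sample 27 and the others, and 3.49 between 33 and 39. The myeloid miRNAs miR-142 and miR-223 were present, at a summed 9987 to 13118 CPM in control and 10921 to 12100 CPM in THC+LPS, and none of the 6 features was called. miR-124-3p, the defining neuronal miRNA, had at most 1 read in any of the 6 samples. Other members of the neuron list below were present: miR-128-3p had 6607 reads and miR-128-1-5p 1007 over the 18 samples.

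THC+LPS cells held more of a small set of miRNAs, and few were lower. Of the 22 higher features, 11 were arms or hairpins of miR-155, miR-21a, miR-146a, miR-221 and miR-222. These belong to a list of miRNAs known to respond to Toll-like receptors, which was chosen with earlier results of these data known. The overlap is therefore a description. miR-155 was higher from both arms and as a hairpin, by 6.73- to 22.3-fold. Both arms and the hairpin of miR-21a, the hairpin and the 3p arm of miR-20a, miR-145a-3p and mir-29c were higher by 1.81- to 3.98-fold. The study's criterion asks for a p no higher than 0.005, taken here as unadjusted, and a change of 1.5-fold or more. In the study it followed a filter at a false discovery rate of 0.1, and here it was applied to all features tested. By this criterion, 25 of 1363 features were called, which is 1.83%, with 22 higher (1.61%) and 3 lower (0.22%). At a Benjamini-Hochberg adjusted p of at most 0.1, limma called 10 features (0.734%), and all were higher. The median log2 fold change over all features was 0.03. Fold changes throughout are on the log2(CPM + 1) scale, which understates those of low features.

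**Figure D1:**
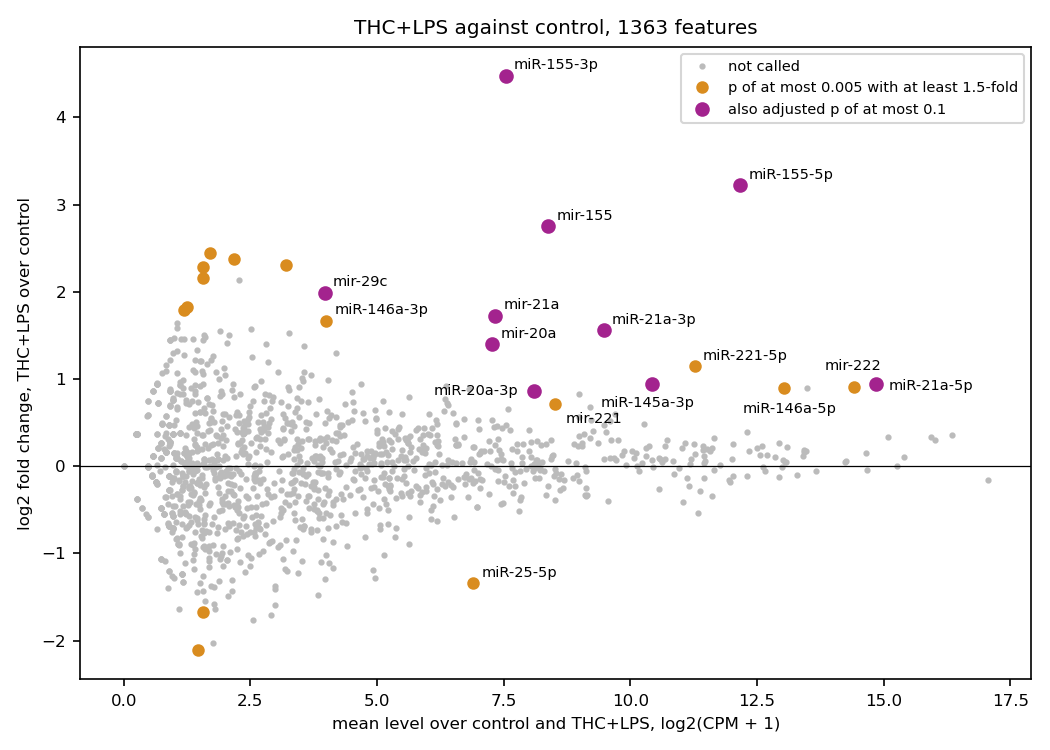
Log2 fold change of THC+LPS over control (3 samples each) against the mean level in log2(CPM + 1), 1 point for each of 1363 features. The 10 purple points passed an adjusted p of 0.1 and all lie above 0, with the 3 miR-155 features at the top, while the 3 called features below 0 are miR-25-5p and a pair of hairpins near the detection limit.

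miR-155-5p, the strand that acts on inflammatory targets, stood at 1248, 598 and 919 CPM in control 22, 28 and 34. In THC+LPS 27, 33 and 39 it stood at 8934, 7901 and 8013 CPM. The lowest treated sample was far above the highest control. The means were 922 ± 325 and 8282 ± 567 CPM (SD, n = 3). In log2 the fold change was 3.23 (SE 0.22; adjusted p = 3.69e-08, limma). Among 721 mature miRNAs its rank by mean level moved from 78 to 22. miR-155-5p went from 0.0588% to 0.133% of all reads in control to 0.715% to 0.931% in THC+LPS.

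The opposite strand, miR-155-3p, had 9, 5 and 17 reads in control, equal to 19.1, 8.55 and 19.8 CPM. THC+LPS gave 179, 310 and 328 reads, equal to 318, 366 and 376 CPM. It was the largest change of any feature tested, with a log2 fold change of 4.48 (SE 0.31; adjusted p = 3.69e-08, limma). The hairpin mir-155 was at 111, 51.3 and 105 CPM in control and at 627, 556 and 537 CPM in THC+LPS, a log2 fold change of 2.75 (SE 0.25; adjusted p = 2.13e-06, limma). Over samples 28 to 39 the log2 fold changes of miR-155-5p, miR-155-3p and mir-155 were 3.42, 4.72 and 2.88.

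miR-21a-5p was already among the 10 most abundant mature miRNAs of control cells. It was at 18555, 21046 and 20936 CPM in control and at 33957, 41491 and 41614 CPM in THC+LPS. The groups did not overlap, and THC+LPS 27 was the lowest of the treated samples. The means of 20179 ± 1407 and 39021 ± 4386 CPM (SD, n = 3) differed by 0.95 in log2 (SE 0.19; adjusted p = 0.0197, limma). Among the 10 features at an adjusted p of 0.1 it held most of the reads. miR-21a-5p took 1.97% to 2.36% of all reads in control and 3.54% to 3.80% in THC+LPS. The 10 features took 2.29% to 2.66% together in control and 4.85% to 4.96% in THC+LPS.

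The passenger strand miR-21a-3p stood at 366, 395 and 312 CPM in control. It stood at 837, 1178 and 1171 CPM in THC+LPS, again with sample 27 lowest, and rose by a log2 fold change of 1.56 (SE 0.22; adjusted p = 0.000463, limma). The hairpin mir-21a was at 91.4, 71.8 and 60.6 CPM in control and at 231, 244 and 264 CPM in THC+LPS. This was a log2 fold change of 1.73 (SE 0.27; adjusted p = 0.00187, limma). All 3 miR-21a features kept their sign without samples 22 to 27, at 0.99, 1.74 and 1.93 for miR-21a-5p, miR-21a-3p and mir-21a.

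**Figure D2:**
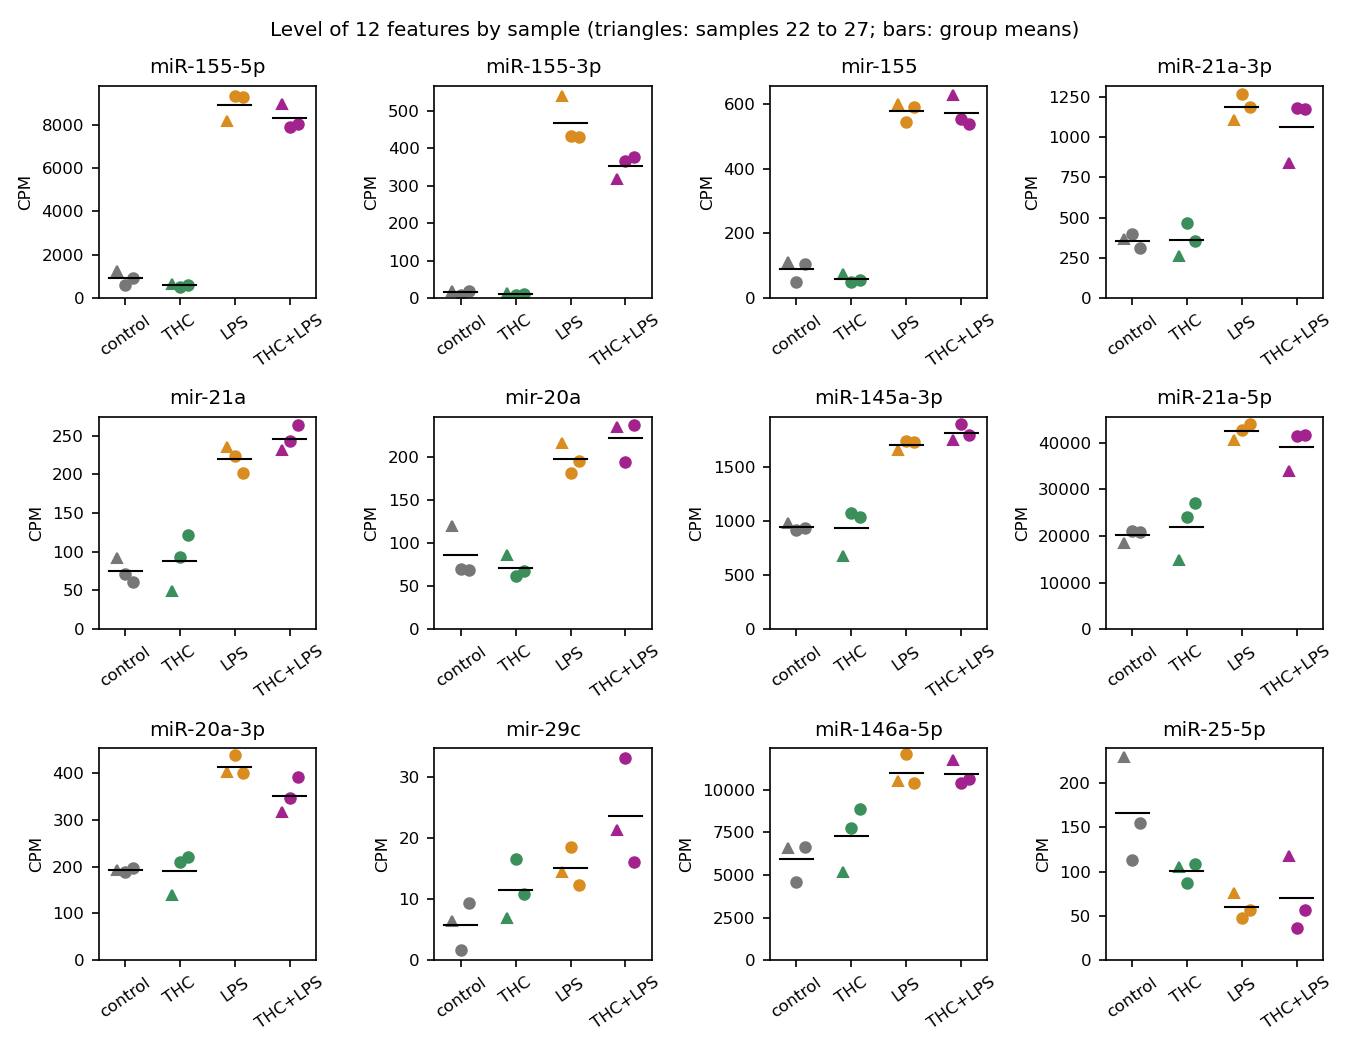
CPM of 12 features in each sample of the control, THC, LPS and THC+LPS groups, with axes from 0, triangles for samples 22 to 27, circles for samples 28 to 39 and bars for group means. For the first 10 panels, those at an adjusted p of 0.1, every THC+LPS sample lies above every control sample, and for miR-25-5p the groups overlap through THC+LPS 27.

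miR-20a belongs to the miR-17~92 cluster, which is known for promoting proliferation. Its passenger strand miR-20a-3p was at 194, 188 and 198 CPM in control and at 318, 348 and 392 CPM in THC+LPS, a log2 fold change of 0.86 (SE 0.20; adjusted p = 0.0663, limma). The hairpin mir-20a was at 119, 70.1 and 68.7 CPM in control, where sample 22 was highest. It was at 235, 194 and 237 CPM in THC+LPS, a log2 fold change of 1.40 (SE 0.26; adjusted p = 0.0101, limma). The guide strand miR-20a-5p overlapped between the groups, at 1464 to 2052 CPM in control and 1586 to 2315 CPM in THC+LPS, with a log2 fold change of 0.06 (SE 0.18). The rest of the cluster did not pass the criterion either: miR-17-5p stood at 0.01, miR-18a-5p at 0.00, miR-19b-3p at 0.23 and miR-92a-3p at -0.16. With scaling by miR-103-3p and miR-191-5p, the calls of mir-20a and miR-20a-3p were lost.

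miR-145a-3p was at 983, 920 and 937 CPM in control and at 1750, 1903 and 1796 CPM in THC+LPS. Both groups were tight, and the log2 fold change was 0.94 (SE 0.19; adjusted p = 0.0197, limma). The other arm, miR-145a-5p, held 1 read in the 6 samples and the hairpin 2, so that nearly every read of this locus was counted on the 3p arm. mir-29c, the precursor of miR-29c, rested on few reads: 3, 1 and 8 in control and 12, 28 and 14 in THC+LPS. Its log2 fold change was 1.99 (SE 0.48; adjusted p = 0.0837, limma), and the call was lost without control 28 and without THC+LPS 33. Its mature arms miR-29c-3p and miR-29c-5p stood at 0.07 (SE 0.21) and 0.32 (SE 0.37) and were not called.

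The remaining features called higher at the criterion did not pass the adjusted threshold. Those with many reads came from the cluster of miR-221 and miR-222, which represses the cell cycle inhibitor Cdkn1b, and from miR-146a. miR-221-5p was at 1780, 1895 and 1009 CPM in control and at 2633, 3941 and 3571 CPM in THC+LPS, a log2 fold change of 1.15 (SE 0.30; adjusted p = 0.142, limma). The hairpin mir-222 was at 17471, 17446 and 11030 CPM in control and at 25604, 29658 and 29208 CPM in THC+LPS, a log2 fold change of 0.91 (SE 0.25; adjusted p = 0.172, limma). In both, sample 34 was the lowest control and sample 27 the lowest treated sample, without overlap. The calls of miR-221-5p and mir-222 were lost without control 34, THC+LPS 33 or THC+LPS 39. The hairpin mir-221 had a log2 fold change of 0.71 (SE 0.20; adjusted p = 0.197, limma), lost without control 28, control 34, THC+LPS 33 or THC+LPS 39. miR-221-3p, the main arm, had one of 0.90 (SE 0.34), miR-222-5p of 0.83 (SE 0.32) and miR-222-3p of 0.26 (SE 0.35), and these 3 did not reach the criterion. Over samples 28 to 39 the log2 fold changes of miR-221-5p, mir-222 and miR-221-3p were 1.44, 1.09 and 0.86.

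miR-146a-5p, the feedback miRNA, was at 6591, 4569 and 6634 CPM in control and at 11713, 10412 and 10647 CPM in THC+LPS. The treated samples were all above the controls, and control 28 was the lowest. The log2 fold change was 0.90 (SE 0.28; adjusted p = 0.257, limma), and the call at the criterion was lost whichever of the 6 samples was left out, with log2 fold changes of 0.72 to 0.99. miR-146a-3p had 4 reads in each control sample and 15, 22 and 15 in THC+LPS, a log2 fold change of 1.67 (SE 0.46; adjusted p = 0.172, limma), and its call was lost without control 28, control 34, THC+LPS 27 or THC+LPS 33. It was also lost with library size alone, with scaling by miR-103-3p and miR-191-5p, in the 2 groups alone and over samples 28 to 39 alone. The hairpin mir-146a stood at 0.57 (SE 0.23). miR-146b-5p, which has the same seed as miR-146a-5p and differs from it only near the 3′ end, was at 6072, 3863 and 7609 CPM in control and at 6221, 5918 and 6297 CPM in THC+LPS, a log2 fold change of 0.13 (SE 0.26). The groups overlapped for miR-146b-5p and not for miR-146a-5p.

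miR-25-5p was the only feature called lower with more than a few reads. It is the passenger strand of a miR-17~92 paralog whose hairpin overlaps an exon of an annotated Mcm7 transcript. It was at 229.7, 112.9 and 154.96 CPM in control and at 117, 36.6 and 56.2 CPM in THC+LPS. Sample 27 lay above control 28, so the groups overlapped. Among the called features this was the only overlap. The called features were picked on these same values, which largely sets this, so it is a description. Over all features, 105 of 1363 (7.7%) had groups that did not overlap. The log2 fold change of miR-25-5p was -1.34 (SE 0.38; adjusted p = 0.201, limma) and -1.52 over samples 28 to 39. The call was lost without control 22, control 34, THC+LPS 33 or THC+LPS 39. Its guide strand miR-25-3p stood at 8416 ± 1091 CPM in control and 8687 ± 1070 CPM in THC+LPS (SD, n = 3) and differed by 0.05 in log2 (SE 0.15).

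Another 9 called features rested on a handful of reads, and their ratios come from reads pooled over each group, with intervals and floors that cover counting error only. miR-10b-5p, from the Hoxd gene cluster, had 2, 0 and 3 reads in control and 7, 8 and 17 in THC+LPS, a ratio of 5.37 (95% interval 2.08 to 17.6). Without control 28 its log2 fold change fell from 2.31 to 1.55 and the call was lost; it was also lost without THC+LPS 27 or 39. miR-10a-5p, with the same seed, overlapped between the groups at 13, 2 and 9 reads in control and 11, 13 and 3 in THC+LPS. miR-451b, an antisense partner of the mir-451a locus, had 1 read in control and 14 in THC+LPS, a ratio of 11.7 (95% interval 1.79 to 496). miR-705, miR-1247-3p, miR-1897-3p, miR-154-3p and miR-3113-5p had no read in control and 9, 10, 8, 6 and 6 in THC+LPS. Against a floor of 3 reads over the control group they were at least 2.52-, 2.80-, 2.24-, 1.68- and 1.68-fold higher, which takes the treated reads as exact. With counting error in both groups, the lower end of the 95% interval of the ratio was 1.66, 1.88, 1.43, 0.987 and 0.987, so that for miR-154-3p and miR-3113-5p it covered 1. The hairpin mir-6343 had 7 reads in control and none in THC+LPS, at least 2.78-fold lower by the same floor, with an upper end of the 95% interval of 0.582. The hairpin mir-1188 had 6 reads and 1, a ratio of 0.140 (95% interval 0.00304 to 1.15). Of these 9 features, miR-705 kept its call with each sample left out in turn and lost it with DESeq2. miR-1897-3p kept it in 5 of the 6 cases, miR-10b-5p in 3 and mir-1188 in 2. miR-1247-3p, miR-154-3p, miR-3113-5p, miR-451b and mir-6343 kept it in 1 of the 6. DESeq2 called none of the 9, and edgeR called miR-705 and miR-10b-5p.

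The ratio of the arms was compared in 220 pairs with at least 10 reads in each arm, 26 of which share a 5p arm with another pair. limma called 0 of them (0%) at an adjusted p of 0.1, with 13 at an unadjusted p of at most 0.05. For miR-155, the pair nearest the threshold, the 3p arm made up 1.51%, 1.41% and 2.11% of the reads of both arms in control and 3.44%, 4.43% and 4.48% in THC+LPS. All treated samples lay above the controls. The log2 ratio of 3p over 5p was higher by 1.25 (SE 0.27; adjusted p = 0.1004, limma), just over the threshold. 2 pairs were called without THC+LPS 27 or without control 34, 4 over samples 28 to 39, and 0 without any other of the 6 samples. In LPS alone the 3p share of miR-155 was 6.20%, 4.42% and 4.44%. Over the same controls its log2 ratio was higher by 1.54 in LPS alone and passed the threshold (adjusted p = 0.0144, limma). The difference of THC+LPS minus LPS was -0.29, and 0 of the 220 pairs were called in that comparison.

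For miR-21a the 3p share was 1.47% to 1.93% in control and 2.41% to 2.76% in THC+LPS, a difference of 0.61 in the log2 ratio (SE 0.20; adjusted p = 0.362, limma). For miR-20a it was 8.80% to 11.4% and 12.1% to 18.8%, a difference of 0.80 (SE 0.26; adjusted p = 0.362, limma). For miR-25 it was 97.4% to 98.5% and 98.8% to 99.5%, a difference of 1.38 (SE 0.34; adjusted p = 0.136, limma). These shares did not overlap between the groups, but none of the 3 differences passed the adjusted threshold. Other pairs had a lower ratio, again without passing it, among them miR-222 and miR-3113. For miR-222 the 3p share was 83.3% to 88.3% in control and 79.6% to 81.6% in THC+LPS, a difference of -0.57 (SE 0.23; adjusted p = 0.704, limma). For miR-3113, which rests on 6 reads of the 5p arm, the difference was -1.92 (SE 0.56; adjusted p = 0.306, limma). In LPS alone over the same controls, miR-25 and miR-20a did pass, at 1.39 and 1.05 (adjusted p = 0.0873 for each, limma). miR-21a did not, at 0.66 (adjusted p = 0.227, limma).

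**Figure D3:**
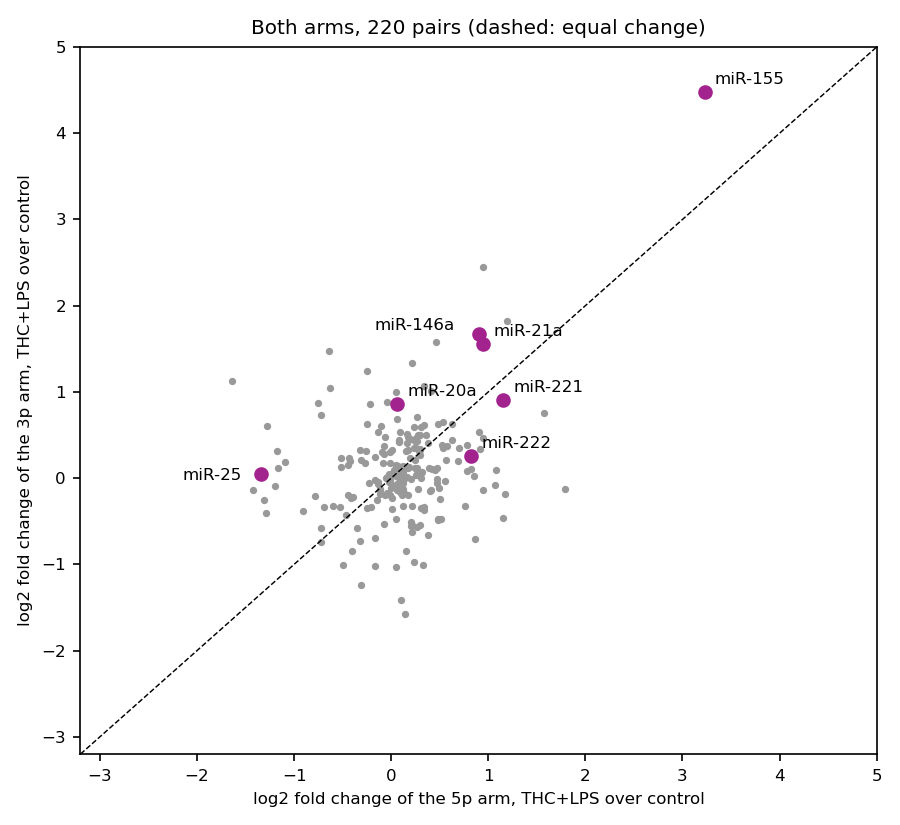
Log2 fold change of the 3p arm against that of the 5p arm, THC+LPS over control, for 220 pairs of arms with at least 10 reads in each arm, with the dashed line marking equal change. miR-155, miR-21a, miR-146a and miR-20a lie above the line, and miR-25 lies above it because its 5p arm is at -1.34 while its 3p arm is at 0.05.

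The lists of families and markers below hold every arm and hairpin of the named miRNAs. The count over all features, 25 of 1363 (1.83%), stands beside each. The lists were chosen with earlier results of these data known, so these counts are descriptions. Of the list of miRNAs known to respond to Toll-like receptors (miR-9, miR-21a, miR-132, miR-146a, miR-146b, miR-147, miR-155, miR-187, miR-212, miR-221 and miR-222), 32 of 35 features were tested, 11 were called higher and none lower, and 6 passed the adjusted threshold. The median log2 fold change was 0.64, and 14 of the 32 did not overlap with control from above, against 7.7% of all features in either direction. The called members all came from miR-155, miR-21a, miR-146a, miR-221 and miR-222. miR-132-3p and miR-212-3p, which derive from 1 transcript and are induced by CREB, stood at -0.34 (SE 0.23) and -0.43 (SE 0.26), miR-187-3p at 0.37 (SE 0.84) and miR-9-5p at -0.72 (SE 0.49), none of them called.

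Of the miR-17~92 cluster and its paralogs, 36 features were tested, 2 were called higher (mir-20a and miR-20a-3p), 1 lower (miR-25-5p), and the median was 0.00. Of 34 let-7 and miR-98 features none was called, with a median of 0.06 and let-7f-5p at 0.05. None was called among 21 features of the miR-15/16 family, 17 of miR-30, 17 of the miR-232724 clusters, 16 of miR-181, 12 of miR-34 and miR-449 and 11 of miR-125. Their medians were 0.08, 0.02, 0.22, 0.13, 0.37 and 0.24. miR-16-5p and miR-30d-5p, among the most abundant miRNAs of these cells, stood at 0.01 and 0.10. The miR-29 family had 1 called feature of 11 (mir-29c; median 0.23), the cluster of miR-143 and miR-145 1 of 4 (miR-145a-3p; median -0.03), the miR-10/99/100 family 1 of 9 (miR-10b-5p; median 0.06) and the blood-lineage list 1 of 10 (miR-451b; median -0.04). All 6 features of miR-221 and miR-222 were above 0, with a median of 0.86 and 3 called higher.

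**Figure D4:**
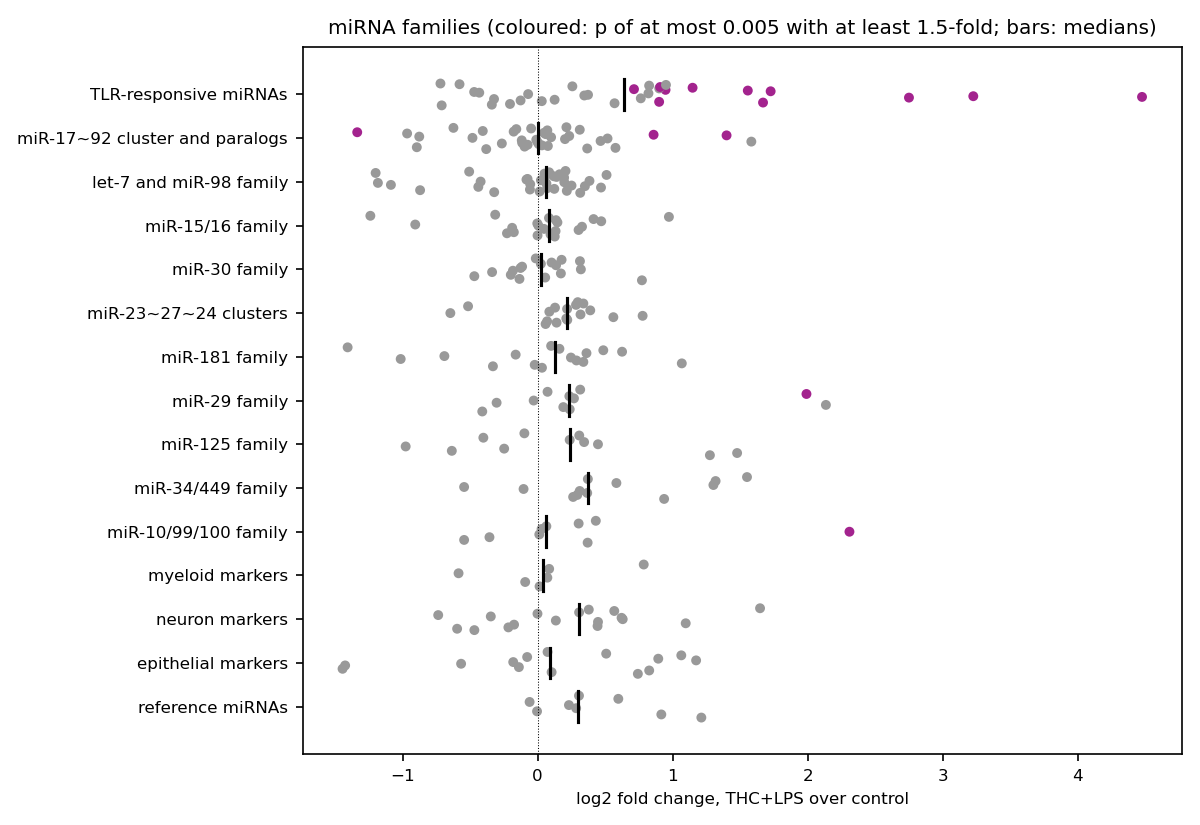
Log2 fold change of THC+LPS over control for the tested features of 15 lists, 1 point a feature, with bars for list medians and purple for features at the criterion. The purple points sit mostly in the Toll-like receptor list, whose median is 0.64, while the other lists plotted have medians between 0.00 and 0.37. The lists were chosen with earlier results of these data known.

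No marker of another cell type passed the criterion. The summed neuron list was at 689 to 846 CPM in control and 626 to 803 CPM in THC+LPS, with none of 17 tested features called. The epithelial list (miR-200 family and miR-141) was at 6842 to 8315 and 7170 to 8579 CPM, with none of 14 called, and most of it was miR-141-3p, at a log2 fold change of 0.10. The endothelial list (miR-126) was at 395 to 692 and 377 to 634 CPM, with none of 3 called, a median log2 fold change of -0.35 and all 3 below 0. The muscle list was at 6.38 to 41.0 and 7.11 to 30.9 CPM, with none of 7 called and a median of -0.32. The hepatocyte marker miR-122 had at most 1 read in a sample, and the erythroid list stayed under 3.50 CPM with its 1 tested feature, miR-451a, not called. All samples are of the BV-2 line, so these lists describe miRNA levels and not numbers of other cells. The reference miRNAs miR-103 and miR-191 were not called in 8 features, but their median was 0.30, and miR-191-5p was at 54235, 56074 and 68747 CPM in control and at 73922, 73937 and 72334 CPM in THC+LPS (log2 fold change 0.31, SE 0.19). The 6 features of the mir-6236 type (3 hairpins and their mature entries), which are abundant and unlike miRNAs, were at 2059 to 41303 and 3808 to 29413 CPM, and 6 snoRNA-like features (mir-3096a, mir-3096b and their arms) at 5096 to 5480 and 5506 to 5772 CPM, with none called in either list.

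Whether THC before LPS gave other values than LPS alone was tested in the same model. For 23 of the 25 called features the 95% interval of THC+LPS minus LPS covered 0, with 16 of the 25 below LPS and 9 above. The 25 were picked with the same THC+LPS samples, so these counts are descriptions. miR-155-5p was at 8157, 9334 and 9273 CPM in LPS, and THC+LPS differed by -0.11 in log2 (95% interval -0.57 to 0.36). miR-155-3p was at 539, 432 and 431 CPM in LPS, above each of the 3 THC+LPS samples, and the difference was -0.40 (95% interval -1.05 to 0.26). For miR-21a-5p it was -0.13 (95% interval -0.53 to 0.27), for miR-146a-5p -0.01 (-0.59 to 0.58) and for miR-146a-3p -0.61 (-1.57 to 0.36). These intervals leave room for a change in either direction. For miR-155-5p, miR-155-3p and miR-21a-5p they are narrower than the rise over control, which was 3.23, 4.48 and 0.95. For miR-146a-5p and miR-146a-3p they are wider than the rise, which was 0.90 and 1.67. Setting a width beside a rise is a description and not a test.

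Over all 1363 features, limma called 3 between THC+LPS and LPS at the criterion (0.22%) and 0 at an adjusted p of 0.1, with 32 at an unadjusted p of at most 0.05. edgeR and DESeq2 also called 0 at an adjusted p of 0.1. The 3 were low. miR-328-5p had 3, 0 and 3 reads in LPS and 6, 8 and 9 in THC+LPS, a ratio of 4.19 (95% interval 1.66 to 12.6). miR-3113-5p had none in LPS and was at least 2.18-fold higher by the floor, on 6 reads, with a lower end of the 95% interval of 1.29. mir-1188 had 3, 4 and 5 reads in LPS and 0, 0 and 1 in THC+LPS, a ratio of 0.0910 (95% interval 0.00213 to 0.615). Without LPS 29 only 1 feature was called. The test of whether THC acts differently with and without LPS called 6 features at the criterion (0.44%), 2 higher and 4 lower, and 0 by limma, edgeR and DESeq2 at an adjusted p of 0.1, with 51 at an unadjusted p of at most 0.05 by limma.

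The comparisons with control of LPS, THC and THC+LPS share the control samples, so their values are only set side by side. THC alone gave log2 fold changes over control of -0.60 and -0.43 for the 5p and 3p arms of miR-155. For these LPS alone gave 3.33 and 4.87, and THC+LPS 3.23 and 4.48. For miR-21a-5p the values of THC, LPS and THC+LPS were 0.08, 1.08 and 0.95, and for miR-146a-5p they were 0.27, 0.91 and 0.90. A feature without reads in control cannot fall below 0 with THC alone, so its sign there carries no information. Of the called features with no or 1 read in control, miR-1897-3p was at 2.34 with THC alone, miR-451b at 1.94 and miR-1247-3p at 1.91. miR-705 was at 1.47, miR-3113-5p at 0.71 and miR-154-3p at 0. The shared controls enter all of these values.

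**Figure D5:**
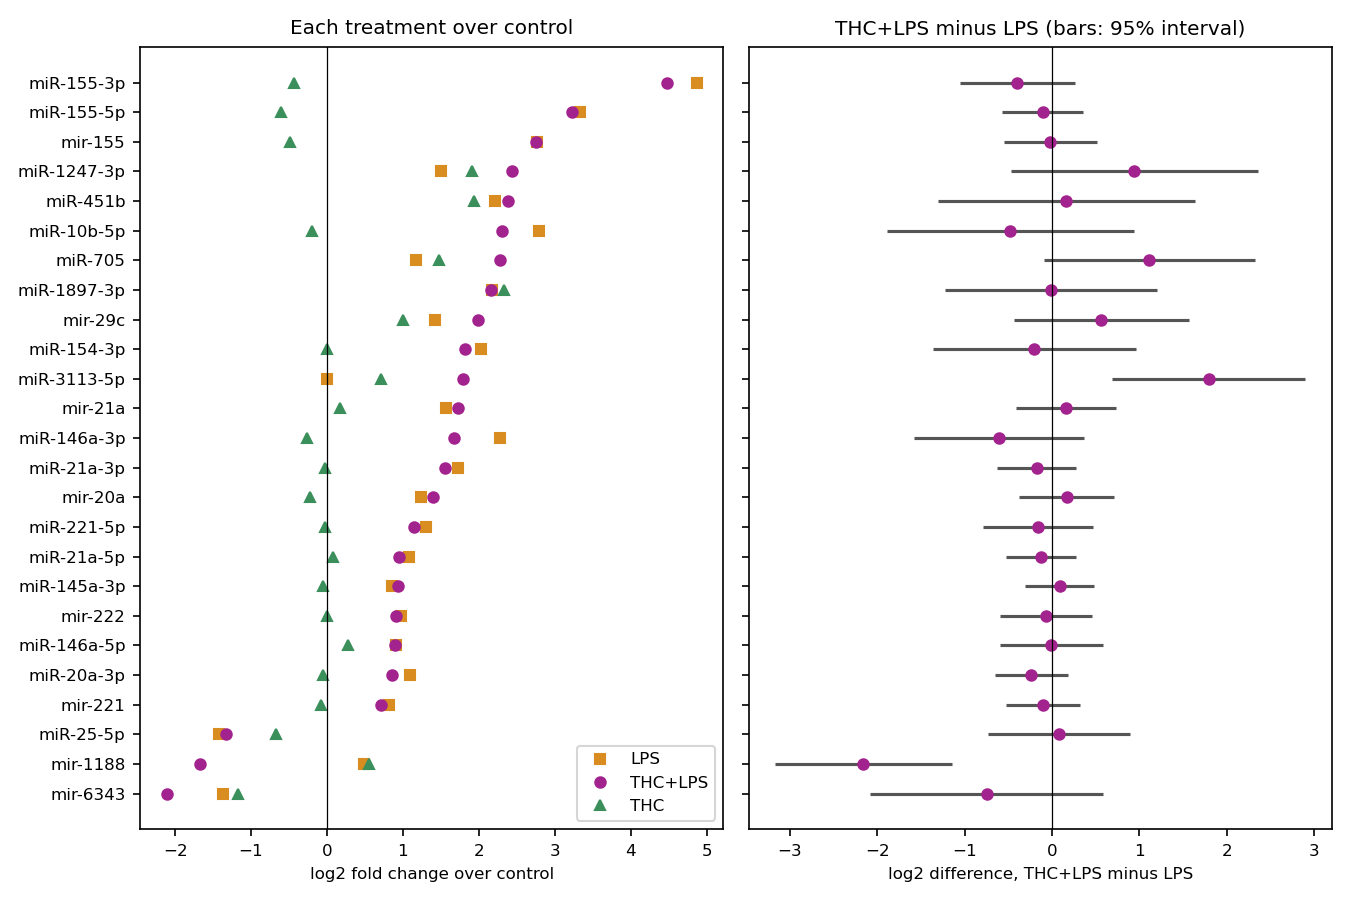
Left, log2 fold changes over the same 3 control samples for LPS (squares), THC+LPS (circles) and THC (triangles), 1 line for each of the 25 called features; right, the log2 difference of THC+LPS minus LPS with its 95% interval. All intervals cross 0 except those of miR-3113-5p and mir-1188, which rest on 6 reads or fewer in THC+LPS.

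THC and CBD share a molecular formula, and in THC a further ring is closed where CBD has a free hydroxyl group. Both were given at 10 μM on the same schedule before LPS, and this 1 pair was compared with adjustment over all features. limma called 2 features lower in THC+LPS than in CBD+LPS at the criterion (0.147%), miR-7a-2-3p and mir-1188. It called 0 at an adjusted p of 0.1, as did edgeR and DESeq2, with 36 at an unadjusted p of at most 0.05. miR-7a-2-3p had 6, 3 and 1 reads in CBD+LPS and none in THC+LPS, and mir-1188 had 3, 3 and 2 reads against 0, 0 and 1. Without CBD+LPS 26 none was called, and without CBD+LPS 32, THC+LPS 27 or THC+LPS 33 only 1 was. For 22 of the 25 features called against control the 95% interval of the difference covered 0. The same THC+LPS samples had picked these 25, so this count is a description. miR-155-5p differed by 0.11 (95% interval -0.35 to 0.58), miR-21a-5p by 0.19 (-0.21 to 0.59) and miR-146a-5p by 0.09 (-0.49 to 0.68). Beside mir-1188, the exceptions were miR-10b-5p, at 1, 1 and 7 reads in CBD+LPS and a difference of 1.98 (0.57 to 3.40), and miR-1897-3p, at 1.38 (0.16 to 2.59).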

How the data were processed

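Small RNA libraries (TruSeq Small RNA kit, Illumina HiSeq) from 18 samples were aligned by the authors to the mouse miRBase reference with BWA, allowing up to 10 mappings a read; the version and the counting of multiple matches are not given in the sources used here. The deposited values are CPM per feature. Columns whose sum exceeds that of plain CPM were recorded as signal, but the deposited signal is the same quantity, CPM of the TMM-scaled library, recomputed to a relative deviation of 4.85e-10. Dividing each file by its smallest non-zero value gave whole reads for 100% of values (tolerance 0.001).

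Groups were taken from the labels. Features with at least 10 reads in all were tested with limma 3.58.1 (R 4.3.3; mean-variance trend, 2-sided) on log2(CPM + 1) in 1 model of the 6 groups. The criterion of p at most 0.005 with 1.5-fold is the study's, taken as unadjusted. It was applied to all features tested, without the study's prior filter at a false discovery rate of 0.1. The stricter call was a Benjamini-Hochberg adjusted p of at most 0.1 over all features tested. edgeR 4.0.16 (quasi-likelihood) and DESeq2 1.42.0 on the recovered reads, other scalings, filters, pseudocounts and samples left out were alternatives. The scripts were tested on simulated data. Arm pairs were tested on the difference of log2(CPM + 1). Named features are those at the criterion, their other arm and hairpin, list members with most reads, and features called against LPS. Members and lists were chosen with earlier results of these data known. No 2 samples of a group agreed within sampling noise. Sequences came from RefSeq by name and positions from GENCODE M21 (GRCm38); 600 of 721 tested mature names matched.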

Additional observations from a re-analysis of the deposited data

How the results depend on the processing

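Of 542 values of the 25 named features under alternative settings, 431 kept direction and call, 111 kept direction and lost the call, and 0 reversed. The features of miR-155 and miR-21a and miR-145a-3p, 7 in all, kept their call in every setting and with each sample left out. The count of features called higher (22) was 6 with hairpins alone and 14 with DESeq2, and 12 to 18 with 1 sample left out (12 without THC+LPS 33, 14 without control 34). The count lower (3) was 1 with filterByExpr, mature miRNAs alone, edgeR, DESeq2 or the 2 groups alone, 5 with features of at least 1 read, and 0 to 4 with 1 sample left out (0 without THC+LPS 33). The count at an adjusted p of 0.1 (10) was 4 with hairpins alone, 16 with a covariate for samples 22 to 27 or with the replicate block below, 22 with samples 28 to 39 alone, and 6 to 10 with 1 sample left out (6 without THC+LPS 33 or 39). Against LPS, the criterion (3) gave 1 with filterByExpr, hairpins alone or DESeq2, 5 with at least 1 read or without the trend, and 1 to 3 with 1 sample left out; the adjusted count (0) became 2 with at least 1 read and 1 without the trend. Against CBD+LPS, the criterion (2) gave 1 with edgeR, 0 with DESeq2, 4 with a covariate for the read share of the abundant mir-6236 type of hairpin, and 0 to 3 with 1 sample left out. The arm count (0) was 1 with a pseudocount of 0.5, 4 with samples 28 to 39 alone, 2 with that covariate, and 0 to 2 with 1 sample left out. The alternatives with hairpins alone, mature miRNAs alone or filterByExpr test only 642, 721 and 645 features. A feature left out there cannot be called, as with mir-1188 and mir-6343 under filterByExpr. For the other settings the cause was not tested. Samples 28 to 39 gave 28 calls at the criterion, of which 17 were shared with the 25. Scaling by library size or by miR-103-3p and miR-191-5p shifted the median of all features by -0.12 and -0.22 in log2. Each log2 fold change under these scalings includes that shift. DESeq2, which changes the model as well as the scaling, shifted the median by -0.15. Median-ratio scaling (RLE) in the main model shifted it by -0.06. The labels pair no samples. Sets of 6 consecutive sample numbers, 1 sample of each group, as a replicate block were an alternative chosen after seeing the data; it called 24 features higher, 3 lower and 16 at the adjusted p, the 10 included, and lost mir-6343 among the named features. Deviations from the group means correlated between samples of a set at -0.43 to 0.54. Features under about 10 reads a sample, such as mir-1188, are limited by depth.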

Other observations

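Reads were unevenly split between entries of the same locus. Over the 18 samples miR-145a-3p had 18661 reads, while miR-145a-5p had 3 and the hairpin mir-145a 6. miR-143-3p, from the neighbouring hairpin of the same cluster, had 269 reads and a log2 fold change of 0.06 in THC+LPS over control. The hairpin mir-222 had 293633 reads over the 18 samples, and its mature arms miR-222-3p and miR-222-5p had 32658 and 7175, as read counts and not per length. The hairpin mir-29b-1 stood at a log2 fold change of 2.14 (SE 0.69), on 0, 2 and 0 reads in control and 4, 3 and 8 in THC+LPS, and did not reach the criterion, while miR-29b-3p stood at 0.23 (SE 0.22).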
